A study of Homo sapiens with 56 samples.

Results

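DOV13 is an established ovarian cancer cell line, and its expression profile was set against those of 27 other ovarian cancer cell lines. It was chosen by its label alone and is represented by 2 of the 56 arrays of the series. The series asked how epithelial and mesenchymal states differ between ovarian cancer lines and measured total RNA of 28 lines on Affymetrix Human Gene ST arrays, with 2 arrays for each line. The labels name no treatment. DOV13 grew in DMEM with 10% fetal bovine serum, as did CAOV3, CH1, OVCA420, OVCA432, OVCA433, SKOV3 and TYKNU, and OAW28 and OAW42 had insulin added to the same medium. RPMI was the base for 9 lines (A2780, COLO720E, EFO21, HEY, HEYC2, OVCAR2, OVCAR3, OVCAR5 and PEO1), and DMEM/F12 for 7 (FUOV1, JHOS2, JHOS3, JHOS4, OV17R, OV56 and OV7). A blend of RPMI and MEGM was used for UWB1.289 and a blend of MCDB105 and M199 for TOV112D, so the growth medium is part of each line's label. Serum was 20% for EFO21 and OVCAR3, 5% for OV17R, OV56 and OV7, 3% for UWB1.289 and 10% for the others. Insulin was also added for OVCAR2, OVCAR3, OVCAR5, OV17R, OV56 and OV7, hydrocortisone for the last 3 of these, and non-essential amino acids for EFO21, JHOS2, JHOS3 and JHOS4. The array labelled JHSO4 was taken as the second array of JHOS4. The first arrays of HEYC2 and OVCA420 and the second array of OV56 stand apart from their duplicates and were left out, which leaves 51 arrays of other lines and 53 in all.

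Epithelial cells hold to each other through cadherins, tight junction claudins and desmosomes, and are filled with keratin filaments. In epithelial-mesenchymal transition (EMT), factors such as ZEB1 and SNAI2 repress these genes while vimentin, N-cadherin and matrix proteins increase, and factors such as GRHL2 and OVOL2 hold the epithelial state. Many carcinoma cells lie between the poles and carry products of both kinds. Ovarian carcinomas retain genes of the Mullerian lineage, such as PAX8, and spread along the mesothelial lining of the abdomen.

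Values are log2 intensities after robust multi-array averaging (RMA), so a difference of 1 is a 2-fold change. No detection calls were used here, so a low value cannot be told from background, and levels of different genes are not compared. The DOV13 arrays correlated with each other at r = 0.994 over 18377 genes (0.9803 to 0.9969 over the 25 lines with 2 arrays). The labels do not say that duplicates are separate cultures, so errors and p-values measure how far duplicate arrays differ, and this may be technical variation only. DOV13 is also a single line, and nothing measured here tells its own properties apart from those of its culture.

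Among differences of at least 1 log2 unit, DOV13 was more often above the mean of the other 27 lines than below it. Of 18377 genes, 859 were higher (4.67%) and 297 lower (1.62%) by at least 1 log2 unit at an adjusted p under 0.05 (limma over all genes, with the spread between arrays of a line as the error). Without the minimum of 1 log2 unit the balance turned, with 3603 genes higher and 4567 lower, and the median difference over all genes was -0.078. A difference from the mean of the lines is not yet a property of DOV13, because lines differ widely among themselves. When each line counted as a single value, 5 genes were higher (0.0272%) and 4 lower (0.0218%) at the same thresholds. With all 56 arrays these counts were 2 and 1, and without the second DOV13 array 10 and 4. At an unadjusted p under 0.05 this second fit had 189 genes higher and 65 lower by at least 1 log2 unit.

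A further comparison asked which genes in DOV13 lay beyond every array of every other line. The lower DOV13 array exceeded all 51 others for 191 genes (1.04%), and the higher DOV13 array lay under all others for 179 genes (0.974%). Of the 191 genes above, 148 were also called higher, and of the 179 below, 60 were called lower. Most of these gaps were small, with a median of 0.17 log2 units above and 0.10 below, and 7 genes above and 4 below were separated by at least 1 log2 unit. By the same rule the other lines with 2 arrays had between 112 (OVCA433) and 585 (FUOV1) genes above, and DOV13 ranked 22nd of 25 from the top. For genes below, DOV13 ranked 9th of 25. With all 56 arrays 168 genes lay above and 95 below. With the first DOV13 array left out 265 lay above and 405 below, and with the second left out 307 and 740.

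**Figure D1:**
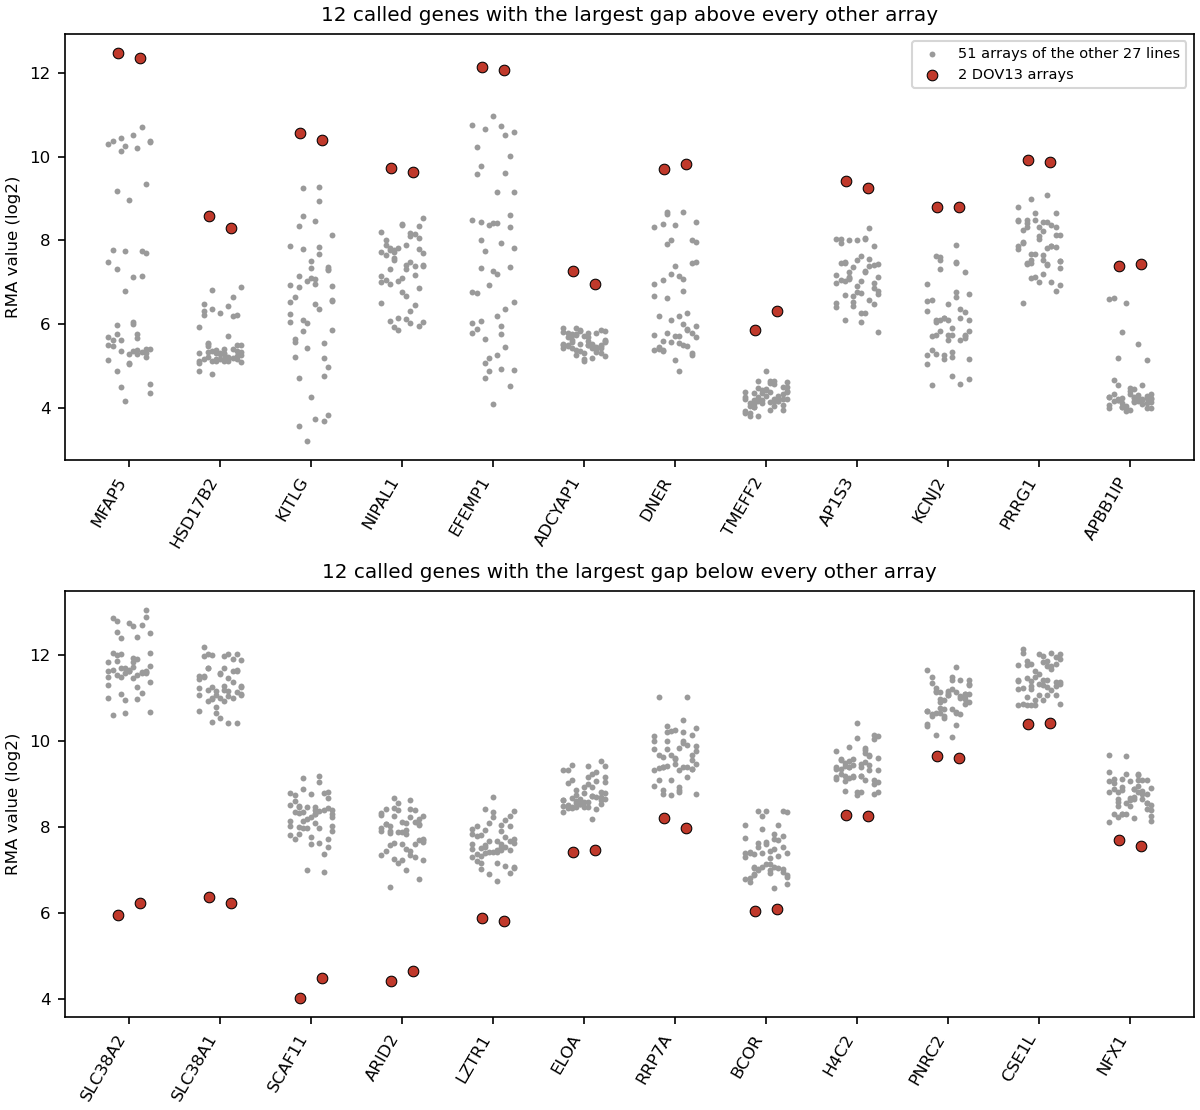
RMA values (log2) of the 12 called genes with the largest gap above (top) and the largest gap below (bottom) every other array, with the 2 DOV13 arrays as red points and the 51 arrays of the other 27 lines as grey points. The DOV13 arrays lie clear of all grey points in every column, by 1.66 for MFAP5 and 4.37 for SLC38A2.

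The largest upward gap belonged to MFAP5, a glycoprotein of the microfibrils that surround elastic fibres. It read 12.47 and 12.36 on the DOV13 arrays, against line means from 4.36 to 10.54 with a median of 5.74 in the other lines. The difference from their mean was 5.62 log2 units (standard error 0.17, adjusted p = 4.88e-23, limma). EFO21 and OV17R came nearest at 10.54 and 10.45, and the gap to the highest other array was 1.66. A second extracellular matrix gene, EFEMP1 (fibulin-3), read 12.15 and 12.06 against 4.31 to 10.74, a difference of 4.61 (standard error 0.18, adjusted p = 6.95e-20, limma). Neither gene passed the fit with the line as the unit (adjusted p = 0.996 for both), because their levels also spread widely over the other lines.

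KITLG, the ligand of the KIT receptor, read 10.56 and 10.39 in DOV13 and 3.45 to 9.26 elsewhere, a difference of 3.96 (standard error 0.13, adjusted p = 2.24e-24, limma). DNER, a transmembrane protein with repeats like those of Notch ligands, read 9.70 and 9.82 against a median of 5.98 and a highest line mean of 8.65 (HEY). Its difference was 3.20 (standard error 0.15, adjusted p = 5.68e-20, limma). ADCYAP1, which encodes the neuropeptide PACAP, had a smaller difference of 1.55 but a very narrow range elsewhere. Its DOV13 arrays read 7.26 and 6.97, and all other line means lay between 5.30 and 5.84.

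HSD17B2, a dehydrogenase that oxidises estradiol and testosterone, read 8.57 and 8.29 against 4.99 to 6.85, with OVCAR2 nearest. The difference of 2.88 passed both fits (adjusted p = 4.01e-23 over arrays and 0.0114 over lines, limma). TMEFF2, a transmembrane protein with follistatin-like domains, read 5.86 and 6.30 against 3.97 to 4.64, and its difference of 1.83 passed both as well (adjusted p = 2.27e-13 and 3.62e-06, limma). The other 3 genes called higher over lines were ADCYAP1 (adjusted p = 6.78e-08), CNGA1 (0.00333) and FAM167B (0.00239, limma). CNGA1, a cyclic nucleotide-gated channel, differed by 1.76 and FAM167B by 1.26. Both fall outside the naming rule and were chosen after their values were seen. All 5 have low values in the other lines, with medians from 3.24 (CNGA1) to 5.81 (FAM167B). With all 56 arrays ADCYAP1 was no longer above every array (gap -0.35), and over lines TMEFF2 still passed (adjusted p = 6.78e-05) while HSD17B2 (0.0521) and ADCYAP1 (0.139) did not (limma).

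Among the other upward gaps were a transport and a channel gene. NIPAL1, of a family of magnesium transporters, read 9.72 and 9.63 against 5.98 to 8.52. KCNJ2, the inward rectifier potassium channel, read 8.80 and 8.79 against 4.55 to 7.73. AP1S3, a subunit of the AP-1 adaptor of clathrin-coated vesicles, read 9.41 and 9.26 against 6.04 to 8.15. The list closed with PRRG1, a membrane Gla protein 2.04 above the mean of the other lines, and APBB1IP, a RAP1 effector that activates integrins, 2.93 above it. APBB1IP read 7.39 and 7.42 against a median of 4.23, and OVCA420 (6.63) and SKOV3 (6.54) came nearest.

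The 4 largest downward gaps were those of 4 genes that follow each other on chromosome 12. They are ARID2, SCAF11, SLC38A1 and SLC38A2, in that order among the measured genes of the current RefSeq annotation, and no other protein-coding gene lies between them there. SLC38A2, a sodium-coupled transporter of neutral amino acids such as glutamine, read 5.97 and 6.24 in DOV13. In the other lines its means ran from 10.61 to 12.90 with a median of 11.63. The difference was -5.64 log2 units (standard error 0.09, adjusted p = 7.07e-32, limma), and the gap to the lowest other array was 4.37. The DOV13 values lie near the median of all probe sets on an array, so background may make up part of them and no fold is given.

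SLC38A1, a second transporter of the same family, read 6.38 and 6.23 against 10.43 to 12.05, a difference of -5.02 (standard error 0.07, adjusted p = 5.06e-36, limma). SCAF11, an SR-related splicing protein, read 4.04 and 4.50 against 7.19 to 9.16, a difference of -3.95 (standard error 0.16, adjusted p = 5.25e-19, limma). ARID2, a subunit of the PBAF chromatin remodelling complex, read 4.42 and 4.67 against 6.81 to 8.66, a difference of -3.29 (standard error 0.11, adjusted p = 4.2e-24, limma). These were also the 4 genes called lower when the line was the unit, with adjusted p from 6.78e-08 (SLC38A1) to 0.000298 (ARID2, limma).

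The 3 arrays left out bear on this result. The first array of OVCA420 read 5.49 for SLC38A2 and 6.30 for SLC38A1, while the array of OVCA420 that was kept, the lowest other line, read 10.61 for SLC38A2. With all 56 arrays none of the 4 genes lay below every array (gaps of -0.74 for SLC38A2, -0.08 for SLC38A1, -1.59 for SCAF11 and -1.10 for ARID2). SLC38A1 alone of them still passed the fit over lines (adjusted p = 0.00679, limma), against 0.0521 for SLC38A2 and 0.149 for SCAF11 and ARID2.

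**Figure D2:**
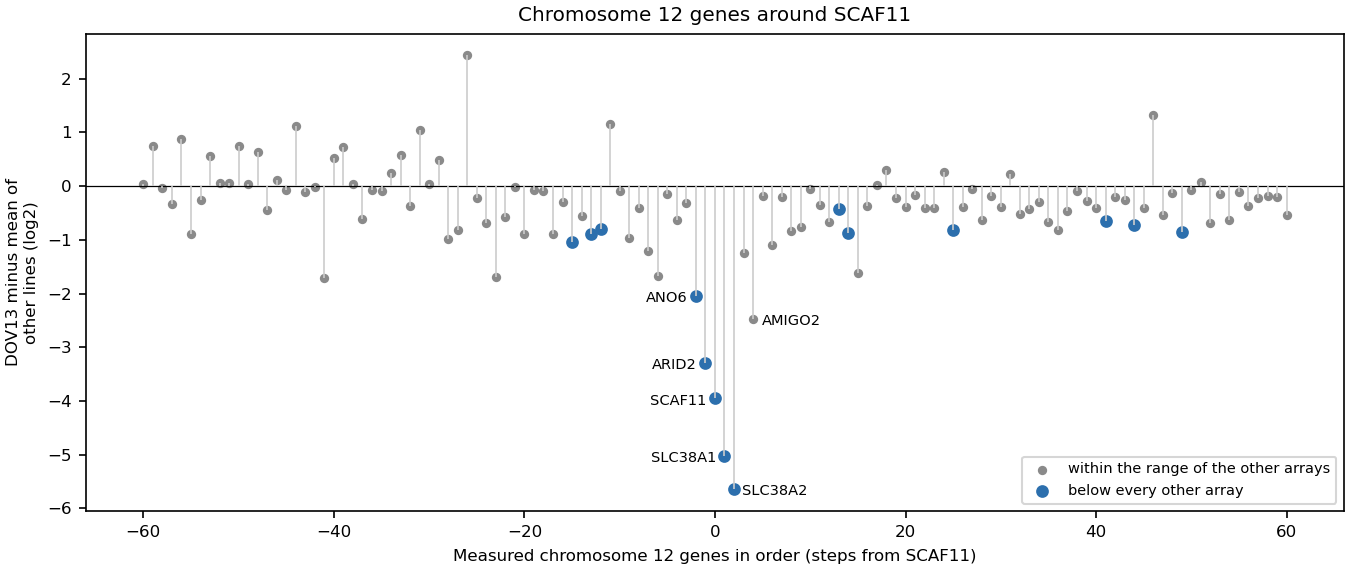
Difference between DOV13 and the mean of the other 27 lines (log2) for SCAF11 and the 60 measured genes on either side of it on chromosome 12, in their order, with genes below every other array in blue. ARID2, SCAF11, SLC38A1 and SLC38A2 stand at -3.29 to -5.64, and of the genes beside them ANO6 and AMIGO2 stand at -2.05 and -2.47 and PLEKHA8P1 at -0.31.

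The genes beside these 4, chosen after their values were seen, were lower by less. ANO6, a phospholipid scramblase and ion channel just before ARID2, read 7.05 and 6.91 and was also below every array (difference -2.05, gap 0.19). After SLC38A2, SLC38A4 differed by -1.25 and the adhesion molecule AMIGO2 by -2.47, and both lay within the range of other lines, at ranks 26 and 25 of 28. PLEKHA8P1 and RACGAP1P1 on the other side differed by -0.31 and -0.63 and were not called. Further out on that side, and also chosen after their values were seen, NELL2 (-1.67) and TMEM117 (-1.21) were called lower, both at rank 25. PRICKLE1 beyond them was called higher (1.16). Past AMIGO2, RPAP3 was called lower (-1.09) at rank 28. Over the 90 measured genes from GXYLT1 to DIP2B, a stretch also chosen after the values were seen, 18 were below every array, 83 had a negative difference and the median was -0.41. Over the other 891 measured genes of chromosome 12, 7 were below every array and the median was -0.06.

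Genes below every array were unevenly spread over chromosomes. Chromosome 22 held 21 of its 421 measured genes (4.99%), chromosome 6 held 30 of 976 (3.07%) and chromosome 12 held 25 of 981 (2.55%), against 0.974% of all genes. Chromosomes 7, 13, 18 and 21 held none among 833, 316, 264 and 235 measured genes. These shares are for the 53 arrays and were not counted with all 56, where 95 genes lay below every array in place of 179. On chromosome 22, LZTR1, an adaptor of a ubiquitin ligase that acts on RAS proteins, had the next largest downward gap. It read 5.89 and 5.82 against 6.91 to 8.48, a difference of -1.77 (standard error 0.11, adjusted p = 8.39e-17, limma). Its measured neighbours CRKL and AIFM3, named after their values were seen, were below every array as well, with differences of -0.89 and -0.33. DNA copy number was not analysed here.

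The remaining downward gaps were smaller. ELOA, the elongin A subunit of a transcription elongation factor, read 7.43 and 7.47 against 8.27 to 9.5. BCOR, a corepressor of the polycomb family, read 6.05 and 6.09 against 6.69 to 8.37, and the exportin CSE1L read 10.39 and 10.41 against 10.84 to 12.05. PNRC2, a factor of mRNA decay, was lower by 1.33, the zinc finger protein NFX1 by 1.11, the rRNA processing factor RRP7A by 1.54 and the histone gene H4C2 by 1.12. RRP7A and H4C2 have near-identical copies in the genome, so signal may be shared between copies. With all 56 arrays ELOA, BCOR, PNRC2, CSE1L and NFX1 were no longer below every array, and PNRC2 (adjusted p = 0.14), CSE1L (0.299) and NFX1 were no longer called (limma). The difference of NFX1 was then -1.0, just short of 1 log2 unit in size.

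The epithelial side of the profile was itself divided. The list means of simple keratins and of desmosomal genes each ranked 4th of 28, and that of adherens and tight junction genes 18th. Of 7 measured keratins of simple epithelia 4 were higher (57.1%, against 4.67% of all genes) and 1 was lower (14.3%, against 1.62%). Their median difference was 1.34 against -0.078 over all genes. The list mean of 10.13 ranked 4th of 28, in a range of 7.22 to 11.29 over the other lines. KRT7 read 12.79 and 12.66 against 5.94 to 13.33, a difference of 3.22 (standard error 0.19, adjusted p = 4.16e-14, limma). KRT19, a keratin of glandular epithelia, read 13.19 and 13.09 against 6.40 to 13.33, also 3.22 higher (standard error 0.42, adjusted p = 3.76e-07, limma). PEO1 alone was above DOV13 for both of these keratins.

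KRT8 and KRT18, the partners of the first keratin filaments of simple epithelia, were higher as well. KRT8 read 13.75 and 13.73 and lay above every other array by 0.05 (difference 1.80, standard error 0.21), and KRT18 read 13.17 and 13.24, a difference of 1.34 (standard error 0.15). KRT23 went the other way, at 4.95 and 4.94 against a median of 5.47 (difference -1.30), and it was not called against DMEM lines alone (-0.60). KRT80 and KRT20 were not called, with differences of 0.89 and -0.50.

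Desmosomes anchor keratin filaments between cells and hemidesmosomes anchor them to the basement membrane. Of 15 measured genes of both structures 7 were higher and none lower (46.7% of the list against 4.67% of all genes), and the list mean of 8.38 ranked 4th of 28. ITGB4, the hemidesmosomal integrin, read 10.21 and 10.16 against 5.35 to 10.08, the highest line mean of all 28 (difference 2.80, standard error 0.16, adjusted p = 1.47e-16, limma). Its partner ITGA6 was 2.05 higher at 11.10 and 11.14. PKP2, a plakophilin of the desmosomal plaque, read 10.88 and 10.96 against a median of 8.90, a difference of 2.43 (standard error 0.20). PERP differed by 1.36 and desmoplakin (DSP) by 1.32, and DSP was not called against DMEM lines alone (0.80).

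Adherens and tight junctions showed another picture. Of 19 measured genes 1 was higher (5.26%, near the 4.67% of all genes) and 3 lower (15.8%, against 1.62%), with a median difference of -0.42 and a list mean of 7.28 that ranked 18th of 28. CDH1, the gene of E-cadherin, read 6.79 and 6.78 in DOV13, where other lines ran from 3.88 (SKOV3) to 11.69 (PEO1) with a median of 7.17. Its difference of -0.84 (standard error 0.33, adjusted p = 0.0394, limma) did not reach 1 log2 unit, and DOV13 ranked 17th. Against DMEM lines alone CDH1 was called lower, by 1.39. CDH3, the gene of P-cadherin, was lower by 1.25 (5.99 and 5.69, adjusted p = 0.000587, limma).

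Claudins seal tight junctions, and here they diverged. CLDN7 read 7.03 on both arrays against 5.04 to 11.20, a difference of -1.37, and CLDN16 read 6.44 and 6.48, a difference of -1.45. CLDN3 (8.10 and 7.92, difference -0.59), CLDN4 (6.57 and 6.89, difference -0.88) and CLDN6 (4.62 and 4.4, difference -0.97) were not called. CLDN1 was the exception, at 11.61 and 11.65 against a median of 10.42, 1.65 higher (standard error 0.19, adjusted p = 2.74e-08, limma). The catenin CTNNA1 read 11.50 and 11.42 and ranked 2nd of 28, with a difference of 0.74 that was not called. EPCAM, a surface adhesion molecule of epithelia, stood in the middle of the panel at 9.14 and 9.19 (median 8.92, rank 14).

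**Figure D3:**
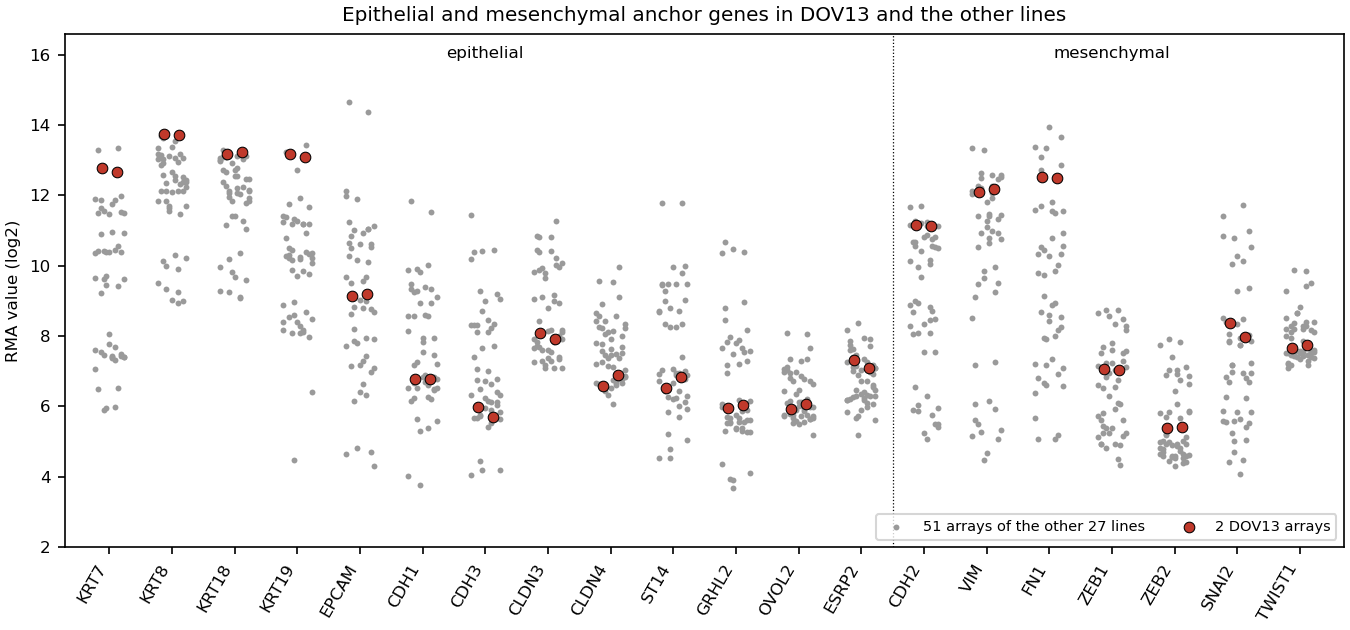
RMA values (log2) of 20 epithelial and mesenchymal genes on the 2 DOV13 arrays (red) and the 51 arrays of the other 27 lines (grey). The DOV13 points sit at the top of the range for KRT7, KRT8, KRT18 and KRT19, in the middle or lower part for CDH1, CDH3, CLDN4 and GRHL2, and in the upper part for CDH2, VIM and FN1.

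The factors that hold the epithelial state did not move together in DOV13. Of 14 measured epithelial transcription and splicing factors 2 were higher (14.3%, against 4.67% of all genes) and none lower (1.62% of all genes). EHF, an ETS factor of epithelia, read 10.61 and 10.45 against 3.49 to 10.68 with a median of 5.95, a difference of 3.84 (standard error 0.23, adjusted p = 8.59e-15, limma), and only PEO1 was above it. KLF5 read 9.52 and 10.27 and had the highest line mean, 1.45 above the mean of the others (standard error 0.15). GRHL2 itself read 5.95 and 6.04 against a median of 5.77 and a highest mean of 10.53 in PEO1 (difference -0.58, adjusted p = 0.0606, limma), and against DMEM lines alone it was called lower, by 1.04. OVOL2 differed by -0.33, ESRP2 by 0.44 and GRHL1 by -0.46, and none of these was called.

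Proteases and inhibitors of the epithelial surface were likewise mixed. ST14, the gene of matriptase, read 6.52 and 6.83 (difference -0.84) and PRSS8 read 6.18 and 6.35 (difference -0.94), and neither was called. SPINT2, which inhibits matriptase, read 11.36 on both arrays and was 1.78 higher, and the apical protein MAL2 at 11.82 and 11.69 was 1.99 higher. SLPI (-1.13, adjusted p = 0.11) and RAB25 (-1.0, adjusted p = 0.0554) missed the threshold with wide errors of 0.56 and 0.42 (limma). In the 13 measured genes of stratified epithelia SFN alone was higher (7.69%, near the 4.67% of all genes). It was higher by 1.18, and not called against DMEM lines alone (0.72), while KRT5 read 6.43 and 6.11 against 13.54 in PEO1.

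Of 14 measured genes of the mesenchymal cytoskeleton and cadherins 5 were higher (35.7%, against 4.67% of all genes) and none lower. The median difference was 0.34, with 8 of the 14 above 0. The list mean of 8.76 ranked 5th of 28, and its rank without CDH6, the member with the largest difference, was not examined. CDH6, a cadherin of kidney and Mullerian epithelia that also marks mesenchymal cells, read 12.97 and 12.91 and was above every other array by 0.18. Other lines ran from 4.32 to 12.72 (OVCAR3), and the difference was 4.67 (standard error 0.18, adjusted p = 3.34e-19, limma). CDH2, the gene of N-cadherin, read 11.15 and 11.13 against a median of 8.99, a difference of 2.24 (standard error 0.10) at rank 5. VIM, the gene of vimentin, read 12.10 and 12.18 against 4.81 to 13.31, a difference of 2.26 (standard error 0.17) at rank 8. CDH11 was 1.70 higher at rank 2, and ACTA2, smooth muscle actin, 1.09 higher but not against DMEM lines alone (0.97).

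None of the 10 measured EMT-inducing transcription factors was called in either direction, and at the shares over all genes (4.67% and 1.62%) a list of this size need hold no call. ZEB1 read 7.07 and 7.02 (difference 0.47, rank 13), ZEB2 5.39 and 5.42 (difference -0.11) and SNAI2 8.37 and 7.97 (difference 0.67, rank 10). TWIST1 read 7.67 and 7.76 (difference -0.22), SNAI1 5.46 and 5.14 (difference -0.47) and PRRX1 4.30 and 4.51 (difference -0.72, rank 27). Against DMEM lines alone SNAI2 was called higher (1.07).

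Matrix genes were selective. Of 31 measured genes of the extracellular matrix 11 were higher (35.5%, against 4.67% of all genes) and 3 lower (9.68%, against 1.62%). The median difference was 0.23, with 19 of the 31 above 0, and the list mean of 7.64 ranked 5th of 28. VCAN, the proteoglycan versican, read 11.21 and 11.16 against a median of 5.66, a difference of 4.44 (standard error 0.17, adjusted p = 1.18e-20, limma). THBS1 (thrombospondin 1) read 13.33 and 13.36, 3.22 higher, and FN1 (fibronectin) 12.51 and 12.5, 3.04 higher. SPARC differed by 2.88, TGFBI by 2.36 and the basement membrane collagen COL4A1 by 2.20. The fibrillar collagen COL1A1 read 6.85 and 6.90 at rank 26. POSTN (periostin) at 2.91 and 3.07 had the lowest line mean of all, but only just, with OVCA420 at 3.04. The median of the other lines was also low for POSTN, at 3.67.

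The lists can be read side by side over the lines. DOV13 was the only one of 28 lines within the upper 7 for both the simple keratins and the mesenchymal cytoskeleton genes. The latter list includes CDH6, which is also a cadherin of epithelia. The same held for keratins with matrix genes, and for desmosomal genes with either mesenchymal list. Over all 18 pairs of an epithelial and a mesenchymal list, DOV13 was in the upper 7 of both in 6 pairs, HEY and UWB1.289 in 2 each, and the remaining 25 lines in none. The limit of 7 and the limits that follow were chosen after the values were seen, these ranks carry no test, and the counts depend on the limit. OVCA433 ranked 7th for keratins, 6th for desmosomal genes and 8th for matrix genes, with a matrix mean of 7.537 against 7.539 for HEY at rank 7. With a limit of 8, OVCA433 joined DOV13 in both matrix pairs and OV17R in both desmosomal pairs. With a limit of 9, OVCA433 was in the upper part of both lists in 10 of the 18 pairs and DOV13 in 6, while keratins with cytoskeleton genes still gave DOV13 alone.

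**Figure D4:**
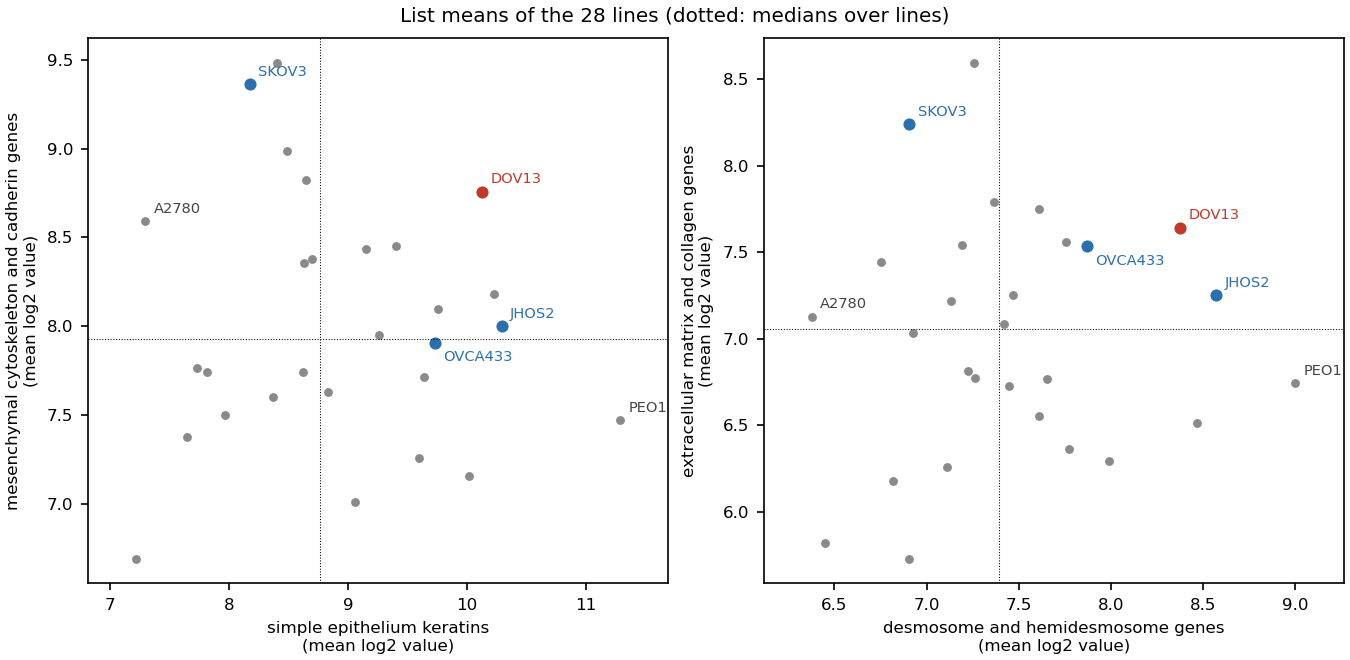
Mean log2 value of simple epithelium keratins against mesenchymal cytoskeleton and cadherin genes (left) and of desmosome and hemidesmosome genes against extracellular matrix genes (right), with 1 point for each of the 28 lines, DOV13 in red and its 3 most alike lines in blue. DOV13 lies to the upper right in both panels, at 10.13 and 8.76 on the left and 8.38 and 7.64 on the right.

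A longer gene list gave a different balance. It holds the 197 epithelial and 223 mesenchymal signature genes that the study lists with methylation sites, which is not its whole signature. The study chose these genes on ovarian cancer lines that include these, so their direction is not independent evidence. Of 182 measured epithelial signature genes 45 were higher (24.7%, against 4.67% of all genes) and 6 lower (3.3%, against 1.62%), with a median difference of 0.21 and a list mean that ranked 9th of 28. Of 200 measured mesenchymal signature genes 10 were higher, a share of 5% that is near the 4.67% of all genes, and 9 lower (4.5%, against 1.62%), with a median of -0.14 and a rank of 20. By this signature DOV13 was thus in the upper part of the panel for epithelial genes and in the lower part for mesenchymal ones. Among epithelial signature genes 9 lay above every array, and among mesenchymal ones 8 lay below every array, where 1.04% and 0.974% of all genes did.

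Integrins and matrix proteases act where cells meet matrix. Of 15 measured integrins 5 were higher (33.3%, against 4.67% of all genes) and 1 lower (6.67%, against 1.62%), and the list mean ranked 2nd of 28. ITGB8, a receptor that activates latent TGF-beta, read 11.75 and 11.78 and was above every array by 0.66 (difference 3.58, standard error 0.28, adjusted p = 2.07e-11, limma). ITGA4 read 7.90 and 7.87 against a median of 4.59 and was above every array by 0.13. ITGB6 and ITGA3 were 2.16 and 2.14 higher. Of 20 genes of matrix proteases and the plasminogen system 8 were higher (40%) and 2 lower (10%). The matrilysin MMP7 led at 9.46 and 9.45 against a median of 4.59 (difference 3.94). SERPINE2 (2.85), MMP2 (2.51) and PLAT (2.06) followed. None of these proteases lay above every array, and EFO21 was higher for MMP7 at 10.55.

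Annexins and S100 proteins bind calcium at membranes, and they formed 1 of the 3 lists with the highest mean of all lines in DOV13. Of 21 measured genes 9 were higher (42.9%, against 4.67% of all genes) and none lower, with a median difference of 0.83. Above every array lay 5 of them, where 1.04% of all genes did. ANXA4 read 12.36 and 12.34 against a median of 8.66, a difference of 3.20 (standard error 0.11, adjusted p = 2.37e-23, limma). S100A2 read 9.45 and 9.71, a difference of 2.69, and ANXA3 read 11.75 on both arrays, a difference of 2.61. OAW42 was nearest for ANXA4 at 12.16, OVCA420 for S100A2 and PEO1 for ANXA3.

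Genes of receptor tyrosine kinase signalling formed another of these lists. Of 23 measured genes of the MET, AXL and FGF pathways 9 were higher (39.1%, against 4.67% of all genes) and 1 lower (4.35%, against 1.62%). MET, the receptor of hepatocyte growth factor, read 11.73 and 11.70 and was above every array by 0.58, a difference of 2.76 (standard error 0.15, adjusted p = 6.67e-16, limma). DUSP4, a phosphatase induced by ERK signalling, read 9.56 and 9.59 and was above every array by 0.65 (difference 2.91). The growth factor FGF18 and the FGF-binding protein FGFBP1 were 2.25 and 2.84 higher. Of 13 measured ERBB genes 2 were higher (15.4%, against 4.67% of all genes) and 3 lower (23.1%, against 1.62%), with a median difference of 0.01. The ligand TGFA at 9.58 and 9.67 was above every array by 0.14 and NRG1 was 1.49 higher. ERBB4 was 1.65 below the mean of the other lines, at 4.65 and 4.59 against a median of 5.27. ERRFI1, an inhibitor of ERBB receptors, was lower by 1.48, though not called against DMEM lines alone (-0.90).

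TGF-beta and WNT genes had members on both sides. BMP4 read 10.79 and 10.65 and was above every array by 0.07 (difference 3.74), TGFB2 was 3.07 higher, the activin subunit INHBA 2.70 and the receptor TGFBR2 2.45. In all, 7 of 26 genes of this pathway were higher (26.9%, against 4.67% of all genes) and 3 lower (11.5%, against 1.62%). Of 33 WNT genes 5 were higher and 3 lower, against 4.67% and 1.62% of all genes, with the secreted inhibitors DKK1 (3.34) and DKK3 (2.36) beside the ligands WNT7A (3.07) and WNT7B (1.77). Of 24 Hippo effectors and targets 7 were higher (29.2%, against 4.67%) and none lower, and the list ranked 2nd of 28. F3 (tissue factor) read 10.90 and 10.99 and ANKRD1 11.92 and 12.07. Of 20 Notch genes JAG1 alone was higher (1.15) and HEY2 alone lower (-1.16). Each is a share of 5%, near the 4.67% of all genes that were higher and, by a single gene, above the 1.62% lower.

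The labelled tissue was checked against lineage markers. Of 23 measured Mullerian and serous carcinoma markers 6 were higher (26.1%, against 4.67% of all genes) and 1 lower (4.35%, against 1.62%). The list mean of 7.38 ranked 9th of 28. Only 9 of the 23 differences were above 0, and their median was -0.18, so most markers lay below the mean of the other lines. LYPD1, a GPI-anchored protein, read 11.64 and 11.65 and was above every array by 0.70 (difference 4.26), and CD24, a surface sialoglycoprotein, read 11.97 and 11.84 and was above every array by 0.07 (difference 3.12). PAX8 and SOX17, the defining Mullerian factors and chosen here after their values were seen, read 10.27 and 10.36 and 9.74 and 9.71, at rank 4 of 28 each. WT1, named in the same way and a marker of serous carcinoma and mesothelium, had the lowest line mean at 5.62 and 6.04, with a difference of -0.98 that was not called.

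Mesothelial markers formed the third list with the highest mean in DOV13, at 6.93 against 5.30 to 6.60 in the other lines. Of 10 measured markers 4 were higher (40%, against 4.67% of all genes) and none lower. BNC1, a zinc finger protein, read 8.34 and 8.52 against a median of 4.63 (difference 3.25) and LRRN4 read 8.75 and 9.25 against 6.07 (difference 2.61). Both lay above every array, by 0.08 and 0.11. MSLN (mesothelin), which ovarian carcinomas also make, was 1.96 higher and the carboxypeptidase CPA4 2.40 higher. JHOS2 and OVCA433, which with SKOV3 were the lines most like DOV13, ranked 3rd and 5th of 28 for this list. Against the mean of these 3 lines 3 markers were higher and none lower, with a median difference of 0.13 and CPA4 at 0.08. CALB2, PDPN and WT1, defining markers chosen after their values were seen, were not called, with differences of 0.78, -0.03 and -0.98.

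Markers of other cell types were mostly near the level of the panel. None of 15 leukocyte markers was called, and at the shares over all genes (4.67% and 1.62%) a list of this size need hold no call. Their mean of 5.06 lay within 4.92 to 5.49. Of 12 endothelial markers CDH5 alone was higher (8.41 and 8.48, difference 2.20), with TIE1 and PECAM1 at differences of -0.93 and -0.82. Of 16 fibroblast markers MFAP5 alone was higher and POSTN alone lower, with LUM at 2.84 and 2.66 and a difference of -0.98. The shares higher, 8.33% of endothelial and 6.25% of fibroblast markers, rest on a single gene each and are near the share over all genes. The neural list had ENO2 and NCAM1 higher by 1.51 and 1.04 (13.3% of its genes), and without array 2 of DOV13 the difference of NCAM1 was 0.85.

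**Figure D5:**
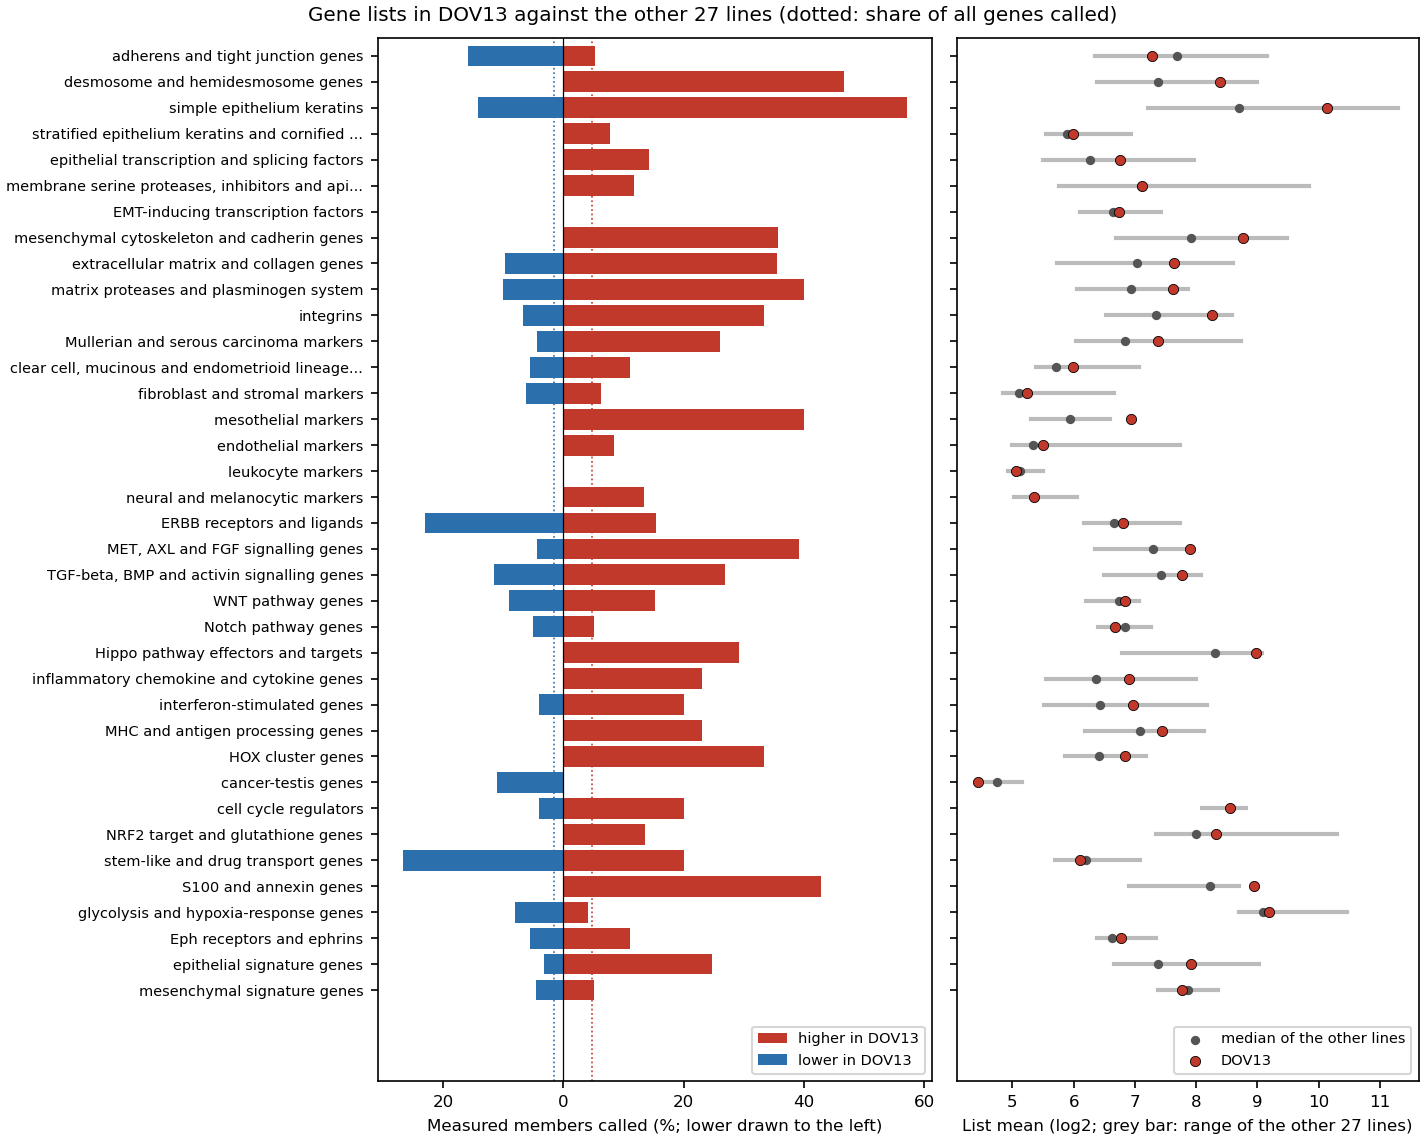
Left, share of the measured members of each gene list called higher (red) or lower (blue, drawn to the left) in DOV13, with dotted lines at 4.67% and 1.62% of all genes. Right, list mean (log2) of DOV13 (red) on the range of the other 27 lines (grey bar, median as a dark point), where DOV13 lies beyond the bar upward for mesothelial markers (6.93), MET, AXL and FGF genes (7.89) and S100 and annexin genes (8.95).

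The lines most like DOV13 were JHOS2, OVCA433 and SKOV3, with Pearson's r of 0.349, 0.304 and 0.275 over 18377 genes centred on the median over lines (Spearman's rho 0.252, 0.175 and 0.206). Genes are not independent replicates, so these values are a description. Against the mean of these lines 584 genes were higher in DOV13 (3.18%) and 278 lower (1.51%, limma). The lines were chosen on the same values, and these calls only describe where DOV13 departs from its nearest lines. Of the 859 genes higher than the mean of the other lines 464 were higher than these lines too. Of the 297 lower, 128 were lower than these lines too.

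Several mesenchymal genes stood close to the mean of these lines, while several epithelial genes and other mesenchymal genes remained higher. That mean includes SKOV3, which had the lowest line mean for EHF (3.49) and PKP2 (5.14) and the highest for VIM (13.31). JHOS2 had higher list means than DOV13 for simple keratins (10.292 against 10.126) and desmosomal genes (8.573 against 8.378). OVCA433 and SKOV3 had lower means than DOV13 for both lists. VIM differed from them by 0.14, FN1 by 0.29, SPARC by 0.29 and TGFBI by 0.08. EHF remained 3.69 higher, PKP2 2.84, KRT19 2.47 and ITGB4 1.83. Of mesenchymal genes CDH6 remained 4.29 higher, VCAN 2.70, CDH11 1.16, COL4A1 1.12 and THBS1 1.10. Of all genes 3.18% were called higher than these lines and 1.51% lower. Against these lines 2 of 14 genes of the mesenchymal cytoskeleton and cadherins were called higher and 1 lower. Of 31 matrix genes 5 were called higher and 4 lower. Of 7 simple keratins 4 were higher and 1 lower, and of 15 desmosomal genes 5 and 1. Of 19 adherens and tight junction genes none was higher and 5 were lower. Of 14 epithelial factors 2 were higher and none lower, and of 17 epithelial surface genes 2 and 2. CDH1 differed by -0.47 and EPCAM by 0.72, neither of them called, and CLDN4 was lower by 1.62. SLC38A2, SLC38A1, SCAF11 and ARID2 were lower than in these lines by 5.28, 4.59, 4.01 and 2.82.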

How the data were processed

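The members and gene lists were chosen with earlier results of these data known. The deposited values are log2 intensities of 28869 probe sets on 56 arrays (range 1.35 to 14.89, array medians 5.961 to 6.306), which the authors made by RMA (affy 1.42.3, per the submitters' processing notes). The genome build, and which arrays were normalized together, are not given in the sources used here. Probe sets with 1 gene in the platform annotation (19310, of which 19279 matched by gene ID to current RefSeq symbols of GRCh38.p14) gave 18377 genes. A further 1752 carry several genes and 7807 none that is listed. Where a gene had more than 1 probe set (685 genes), that of highest mean stood for it. RefSeq was used for names and gene order only. Some genes are not reported here.

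The fits used limma 3.58.1 with trend and robust settings, under R 4.3.3 with statmod 1.5.0, on 53 arrays with a coefficient for each line, and on 28 line means. Calls needed a Benjamini-Hochberg adjusted p under 0.05 over all genes and at least 1 log2 unit. The fits were tested on simulated data. Tables and figures used Python 3.11.15, pandas 2.3.3, numpy 2.4.6 and matplotlib 3.10.9. Lists were described by counts, medians and ranks, with no test. Named genes were the 12 called genes with the largest gap in each direction, 20 epithelial and mesenchymal genes set by name with up to 5 more of each epithelial or mesenchymal list, and up to 4 of each other list by size of difference. Genes outside this rule are marked in the text.

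Alternatives were all 56 arrays, each DOV13 array alone, the mean over probe sets, genes with a mean of at least 5 (14801), further quantile normalization, DMEM lines only, no JHSO4 array, a replicate block, plain eBayes, no minimum difference, line means in place of arrays and a gap of at least 1. The number of arrays limits the precision.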

Additional observations from a re-analysis of the deposited data

How the results depend on the processing

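Counts of genes called over arrays stayed within 1.5 times under all alternatives but 1: without a minimum difference 3603 genes were higher and 4567 lower, in place of 859 and 297, so the balance turned. With a replicate block the counts were 859 and 297, and no call among the 187 genes of the naming rule changed. Same-numbered arrays did not deviate together over the lines as a whole (median r 0.000166 over 300 pairs of lines, range -0.32 to 0.377, 20.3% over 0.1). Whether the numbers pair the arrays of some lines was not tested. With each DOV13 array alone the fit over arrays gave 837 to 888 genes higher and 317 to 336 lower, the fit over lines 6 to 10 and 4, and genes beyond every array numbered 265 to 307 above and 405 to 740 below. Without array 2 there were 10 genes higher over lines, 307 above and 740 below, and without array 1 405 below. The fit over lines gave 2 higher and 1 lower with all 56 arrays, 3 higher with genes of a mean of at least 5, and 3 higher and 2 lower with DMEM lines only, all of them among the 5 and 4 called before except 1 of the 3 higher with DMEM lines. With all 56 arrays 95 genes lay below every array. With DMEM lines only 698 lay above and 657 below, by line means 356 and 877, and with a gap of at least 1 log2 unit 7 and 4. Of the genes on epithelial lists, 10 were lower with DMEM lines only (4 before), and of epithelial signature genes 12 (6 before). The median of the epithelial lists was -0.10, and -0.15 with all arrays and -0.09 to -0.07 with each DOV13 array alone. Genes of mesenchymal lists called lower numbered 3, and 4 to 5 with each DOV13 array alone. The epithelial signature median was 0.21, and 0.29 with all arrays, 0.23 over probe sets, 0.15 with DMEM lines only and 0.22 to 0.24 with each DOV13 array alone. The mesenchymal signature median was -0.14, and -0.08 with all arrays, -0.10 with DMEM lines only and -0.18 to -0.12 with each DOV13 array alone. TWIST1 turned to 0.01 with DMEM lines only, KRT13 to 0.08 without array 1 (-0.58 without array 2) and SPRR3 to 0.10 without array 2 (-0.42 without array 1), none of them called. The causes were not tested. Among the genes of the naming rule, 9 lost their call with DMEM lines only and 3 with all 56 arrays. Without detection calls, the lowest values set no true floor for a difference.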

Other observations

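Several lists outside the epithelial and mesenchymal comparison also had members beyond the other lines. The 8 HOX genes called higher in DOV13, of 24 measured (33.3%, against 4.67% of all genes), were all of the HOXB cluster, which patterns the body axis. HOXB3 read 8.29 and 8.32 against a highest line mean of 7.49 and was above every array by 0.34 (difference 1.84, standard error 0.15, adjusted p = 1.62e-12, limma). HOXB2, HOXB6 and HOXB5 were higher by 2.06, 1.68 and 1.59. Of 26 inflammatory genes 6 were higher (23.1%, against 4.67% of all genes) and none lower. Among them were IL18 at 9.87 and 9.75, above every array by 0.21, and IL1A and TNFAIP3 with differences of 2.44 and 2.29. CCL2 was 1.69 higher on average, with arrays that differed widely at 8.07 and 6.97. The immunoproteasome subunit PSMB8 read 9.96 and 9.95 and was above every array by 0.24. Of 25 interferon-stimulated genes 5 were higher (20%, against 4.67%) and 1 lower (4%, against 1.62%), with IFI27 2.37 higher and IFITM1 lower by 1.48.

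The cancer-testis list was the 1 list whose mean was lowest in DOV13 (4.43 against 4.47 to 5.16), with PRAME at 5.44 and 6.25 against a median of 9.25 (difference -3.07) and TEX15 lower by 1.84. Of 15 stem-like and drug transport genes 3 were higher (20%, against 4.67% of all genes) and 4 lower (26.7%, against 1.62%). The efflux pump ABCB1 read 8.20 and 7.82 against a median of 4.88 (difference 2.52), ALDH1A3 and CD44 were 2.28 and 2.03 higher, and LGR5 was lower by 1.63. Of 25 measured cell cycle regulators 5 were higher (20%, against 4.67% of all genes) and 1 lower (4%, against 1.62%). Their median difference was -0.3, with 8 of the 25 above 0. CDK6 read 9.89 on both arrays, above every array by 0.02. CCND2 was 2.63 higher and CDKN1A 1.53 higher, while CDKN2A was lower by 1.49. The ephrin EFNB2 was above every array by 0.10 (difference 2.04). Among NRF2 targets AKR1C3 was 2.25 higher, and PGD, an enzyme of the pentose phosphate pathway, read 10.12 on both arrays and lay below every array by 0.10 with a difference of -0.99 that was not called. Of 25 measured glycolysis and hypoxia-response genes 1 was higher (4%, near the 4.67% of all genes) and 2 lower (8%, against 1.62%). Their median difference was 0.05, with 13 of the 25 above 0. EPAS1 was 1.02 higher, and VEGFA and CA12 were lower by 1.28 and 1.27.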
